A study of Ovis aries with 18 samples.

Results

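The 9 plasma small RNA libraries of ewes kept on a standard diet (CTRL) are described here over weeks 7, 10 and 14, with the weeks compared with each other. They were chosen by their sample titles and are 9 of the 18 libraries of the study, 3 for each week. The remaining 9 are from ewes fed a high-fat diet (OBESE). The study as a whole is concerned with leptin resistance as obesity develops. All animals were Polish Longwool ewes, female sheep that had their ovaries removed and carried estradiol implants, and 6 of the 12 were assigned at random to the standard diet. The ovary removal and the implants are thus shared by both diets, and no group shows ewes in their natural cycle. CTRL ewes at weeks 7, 10 and 14 differed in the length of the study alone, as far as the labels say, and their ages are not given there. Each RNA sample came from 200 µL of plasma. It is not stated if single ewes or pools were sequenced, or if a replicate number means one ewe throughout. What the p-values measure is thus only the scatter among these libraries, some of which may be technical, and an ewe may have been sampled at more than 1 week.

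MicroRNAs (miRNAs) are short RNAs that guide Argonaute proteins to messenger RNAs and lower the output of their targets. Blood cells, platelets, vessel walls and organs release them, and in plasma they last because vesicles, lipoproteins and Argonaute protect them from RNases. Plasma levels are therefore read as markers of tissues and metabolic states, and such a reading needs the level in animals whose diet does not change. In whole plasma, fewer cells that release a miRNA and less of it per cell cannot be told apart.

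The files list 364 features, of which 107 carry a miRNA name and 257 only a running number. The latter are written as "unnamed miRNA" with that number. Total counts in the CTRL libraries ran from 388574 in week 10 replicate 1 to 1269829 in week 10 replicate 3. Counts above 0 in all 9 CTRL libraries were found for 154 of the 364, and 18 had none in any. A filter on low counts left 168 features for testing, 54 named and 114 unnamed. Only 117 of these reached 10 counts in every CTRL library. Levels are CPM, counts relative to library size, scaled by TMM, a method that sets the bulk of the miRNAs level between libraries. Week 7 replicate 1 and week 14 replicate 3 stood apart, with TMM factors of 0.653 and 0.718 against 0.944 to 1.11 in the other 7. They also had the largest shares of counts in their 5 most abundant miRNAs, 87.97% and 86.7%, against 76.97% to 81.73%. Because levels are divided by the factor, each level in these 2 libraries stands higher, relative to the other 7, than its share of counts.

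The number of miRNAs detected was the one library measure in which the weeks came near to separating. At least 1 count was found for 222, 235 and 243 features at week 7, for 249, 250 and 283 at week 10, and for 261, 263 and 269 at week 14. All 3 week 7 libraries were below the other 6. An exact permutation of the week labels over the 9 libraries gave p = 0.0571, and 0.343 after Benjamini-Hochberg adjustment over 6 library measures. Without week 10 replicate 3, the deepest library, the adjusted exact p was 0.0429. Total counts ran from 412117 to 661456 at week 7, from 388574 to 1269829 at week 10 and from 751394 to 977732 at week 14 (exact permutation p over the 3 weeks = 0.436). Week 10 held both the shallowest and the deepest library, while weeks 7 and 14 did not overlap in depth (exact p = 0.1, the smallest that 3 libraries against 3 can give). Recalculated to the shared depth of 388574 counts, which was added after seeing the data, the numbers were 220.9 to 232.7 at week 7, 235.5 to 250 at week 10 and 230.4 to 246 at week 14 (exact p = 0.0643, and 0.129 without week 10 replicate 3). The other 5 measures, which were total counts, features with at least 10 counts and the shares of the top 5, of miR-16b and of named miRNAs, gave exact p-values from 0.371 to 0.843.

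Without the high-fat diet, the same few miRNAs led plasma at every week. miR-16b, of the blood-cell-rich miR-15 and miR-16 family that restrains the cell cycle, was first in all 9 libraries. It took 53.92%, 46.46% and 45.12% of counts at week 7, 45.24%, 50.13% and 45.78% at week 10, and 44.02%, 47.61% and 55.08% at week 14. The weeks overlapped, and the 2 highest shares belonged to the libraries with the low TMM factors. Unnamed miRNAs 1 and 2 filled ranks 2 and 3 in all 9. Unnamed miRNA 1 was at 332300, 169300 and 77960 CPM at week 7, 127000, 136700 and 109100 at week 10, and 73330, 137000 and 235400 at week 14. Its highest levels fell in the libraries of low TMM factor, as for miR-16b, and its week 10 libraries lay inside the range of the other weeks. Unnamed miRNA 2 was steadier, at 91180 to 142500 CPM. let-7b and let-7g, members of the let-7 family that represses growth and cell cycle genes, held ranks 4 to 5 and 4 to 6. miR-191, abundant in platelets, held ranks 5 to 6. Its levels were 31310, 27490 and 31390 CPM at week 7, 28340, 40100 and 42670 at week 10, and 37990, 29940 and 32510 at week 14, with overlap between all weeks. let-7a was seventh in every library, and unnamed miRNA 3 was always at rank 8 or 9.

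**Figure D1:**
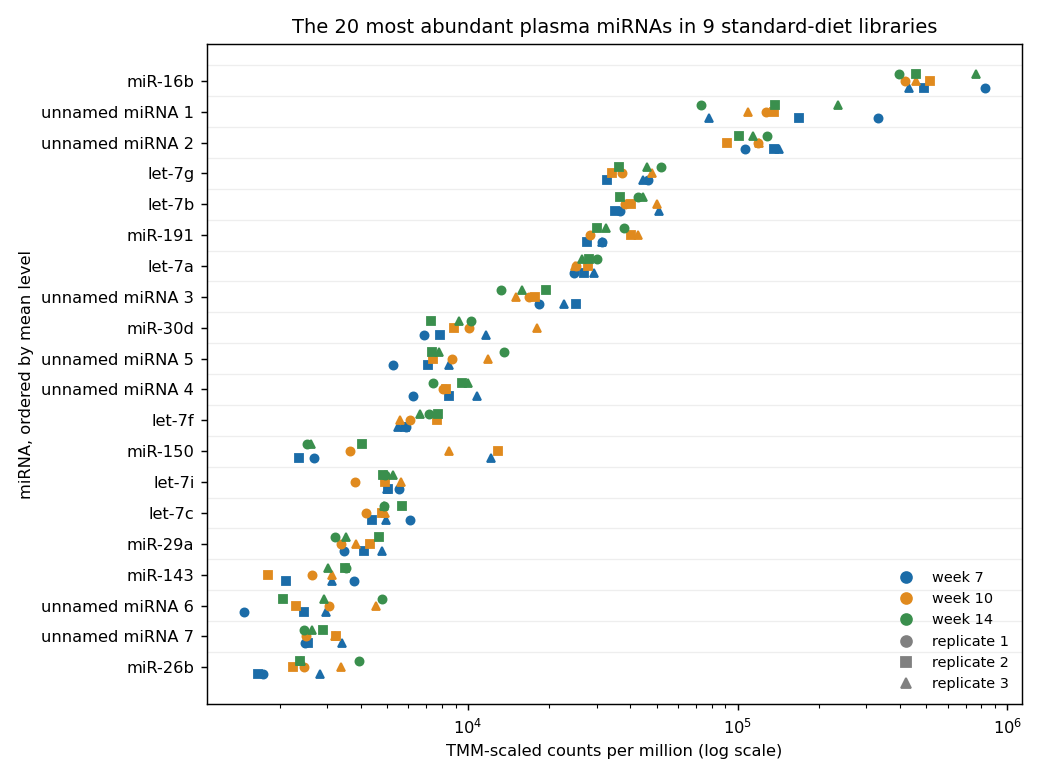
The 20 most abundant miRNAs (y axis, ordered by mean) with their TMM-scaled CPM in each of the 9 standard-diet libraries (x axis, log scale); colour gives the week and marker shape the replicate. The weeks lie among each other in most lines, miR-150 spreads from 2363 to 12940 CPM, and let-7a stays between 24670 and 30120 CPM.

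The leading set was much the same from library to library. Of the 10 most abundant, 8 were shared by all 9 libraries, and 13 miRNAs entered the top 10 anywhere. miR-30d, of a family studied in fat cells and pancreatic islets, was in it in 8 libraries, unnamed miRNA 4 in 4, unnamed miRNA 5 in 3, miR-150 in 2 and let-7f in 1. The top 20 shared 15 of 26 and the top 50 shared 38 of 61. The top 10 took 88.65% to 93.67% of counts and the top 50 took 98.16% to 98.94%, so ranks beyond these rest on few counts.

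Ranks over all 168 tested miRNAs were close to each other both between and within weeks. Spearman's rho across miRNAs had a median of 0.953 over the 27 pairs of CTRL libraries from different weeks (0.922 to 0.975). Over the 9 pairs from the same week it was 0.950 (0.928 to 0.958). Pairs from the same week always differ in replicate number, and the 18 pairs between weeks that did so had a median of 0.950. Weeks 7 and 14, the farthest apart, had a median of 0.950 over 9 pairs, against 0.956 for weeks 7 and 10 and 0.955 for weeks 10 and 14. The lowest values involved week 7 replicate 1, whose 8 pairs ran from 0.922 to 0.956. These correlations are across miRNAs, which share libraries and are not independent replicates.

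**Figure D2:**
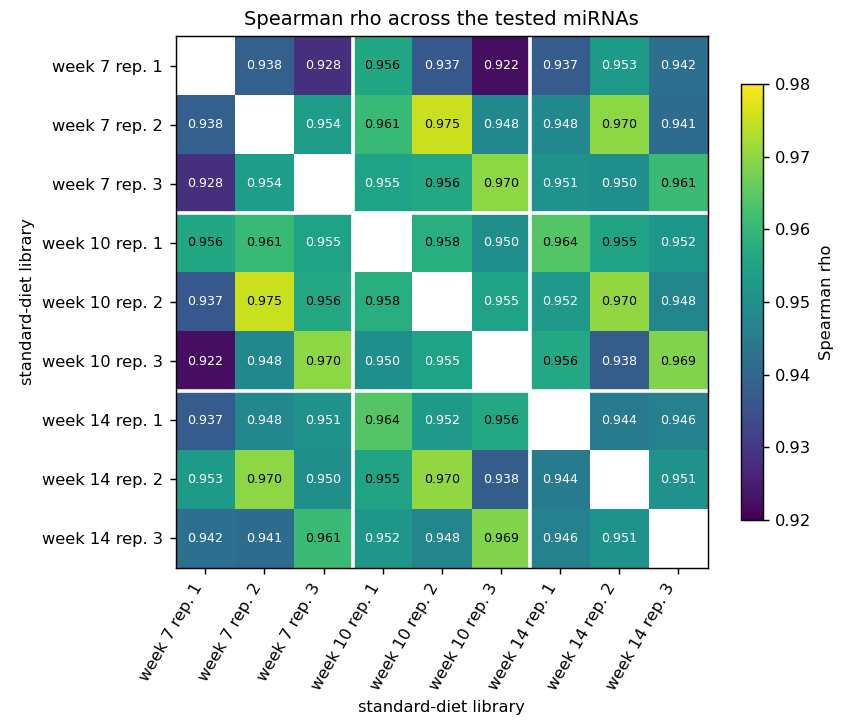
Spearman's rho across the 168 tested miRNAs for each pair of the 9 standard-diet libraries (both axes; colour and printed value give rho, white lines divide the weeks). Values run from 0.922 to 0.975, and the squares within a week are no brighter than those between weeks.

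Week differences were set beside the separation between libraries of the same week, which may include lasting differences between ewes. The standard deviation of log2 CPM within weeks had a median of 0.514 over the 168 miRNAs. It was 0.326 in the 40 miRNAs with at least 1000 CPM, 0.382 in the 56 with 100 to 1000 CPM and 0.727 in the 72 below. Counting error alone would give medians of 0.0344, 0.0975 and 0.343 in these classes, and the measured spread was far above this in the abundant miRNAs. Named miRNAs had a median of 0.394 and unnamed ones of 0.553. The 3 week means of a miRNA lay 0.383 apart on the log2 scale (median), with 158 of 168 under 1. That range exceeded the miRNA's own within-week SD in 61. Week took a median of 16.4% of a miRNA's sum of squares. It holds 25% of the degrees of freedom, which is the mean share without any week effect, and the median share would then be lower.

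let-7a varied least of the named miRNAs. Its level was 24670, 26790 and 29230 CPM at week 7, 25190, 27870 and 24980 at week 10, and 30120, 28130 and 26450 at week 14, or 27050 ± 1931 (SD, n = 9), a coefficient of variation of 7.14%. No library fell outside a narrow band, and the weeks overlapped. Next came let-7d, let-7i and let-7c, with SDs of log2 CPM of 0.16, 0.16 and 0.17 over the 9 libraries, and miR-26a, studied in growth control and fat cell formation, with 0.17. let-7d stood at 2430 ± 274 CPM and miR-26a at 1215 ± 144.5 CPM (SD, n = 9 each).

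At the other end stood 5 named miRNAs whose mean levels were under 30 CPM. miR-3957-5p, miR-133, miR-148a, miR-323a-3p and miR-376c-3p had SDs of log2 CPM from 1.05 to 1.52. miR-148a, a liver and fat cell miRNA, was at 0, 38.4 and 30.1 CPM at week 7, 16.7, 22.6 and 7.91 at week 10, and 43.1, 20.6 and 18.5 at week 14. Its single 0 fell in week 7 replicate 1. Among abundant miRNAs the widest spread was that of unnamed miRNA 27. It stood at 1142, 2382 and 64.9 CPM at week 7, 2479, 2571 and 65.6 at week 10, and 3612, 1776 and 89.8 at week 14. The library named replicate 3 was low at each week, and week took 1.04% of its sum of squares.

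**Figure D3:**
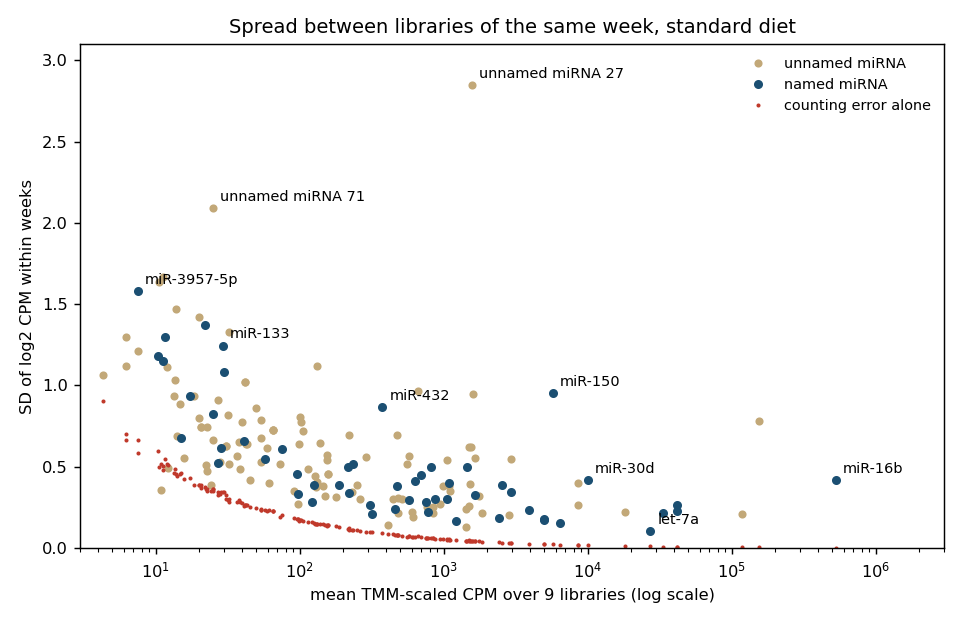
Standard deviation of log2 CPM between libraries of the same week (y axis), pooled over the 3 weeks, against mean TMM-scaled CPM over the 9 libraries (x axis, log scale) for the 168 tested miRNAs; red points give the spread from counting error alone. let-7a lies lowest at 0.102, and unnamed miRNA 27 highest at 2.85.

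No miRNA passed the test between any pair of weeks on the standard diet. With edgeR's quasi-likelihood test, 0 of 168 (0%) reached an adjusted p of 0.05 for week 10 against week 7, 0 of 168 (0%) for week 14 against week 7 and 0 of 168 (0%) for week 14 against week 10. The smallest adjusted p-values were 0.947, 0.963 and 0.848. At an unadjusted p under 0.05 there were 3, 6 and 5 miRNAs. DESeq2 was run on all features with a count in any library, not on the 168 alone. It called 0, 0 and 0 (5, 7 and 9 at an unadjusted p under 0.05). On the 168, limma-voom called 0, 0 and 0 (3, 5 and 7). A test for any difference among the 3 weeks called 0 of 168 (0%), with 4 at an unadjusted p under 0.05. DESeq2 and limma-voom called 0 there too, with 5 and 3 unadjusted. The count of miRNAs whose 3 libraries of one week did not overlap the 3 of the other was 8 (4.76%), 9 (5.36%) and 9 (5.36%), with 4 of each higher in the later week.

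How far the data bound a change depended on abundance. Fitted log2 differences had a median size of 0.27, 0.25 and 0.22 in the 3 comparisons, and 157, 155 and 161 of the 168 were smaller than 1, a 2-fold difference. The 95% interval lay wholly within 1 to either side of 0 for 68, 66 and 72 miRNAs. Among the 40 with at least 1000 CPM this held for 29, 31 and 31. Among the 72 under 100 CPM it held for 5, 2 and 4, so there a 2-fold change could not be told from none at this depth and replication. Of the 10 most abundant, 8, 9 and 8 had such intervals. The 2 without them for week 10 against week 7 were unnamed miRNA 1, with a log2 difference of -0.64 (95% interval -1.51 to 0.23), and miR-30d, with 0.48 (-0.08 to 1.05).

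**Figure D4:**
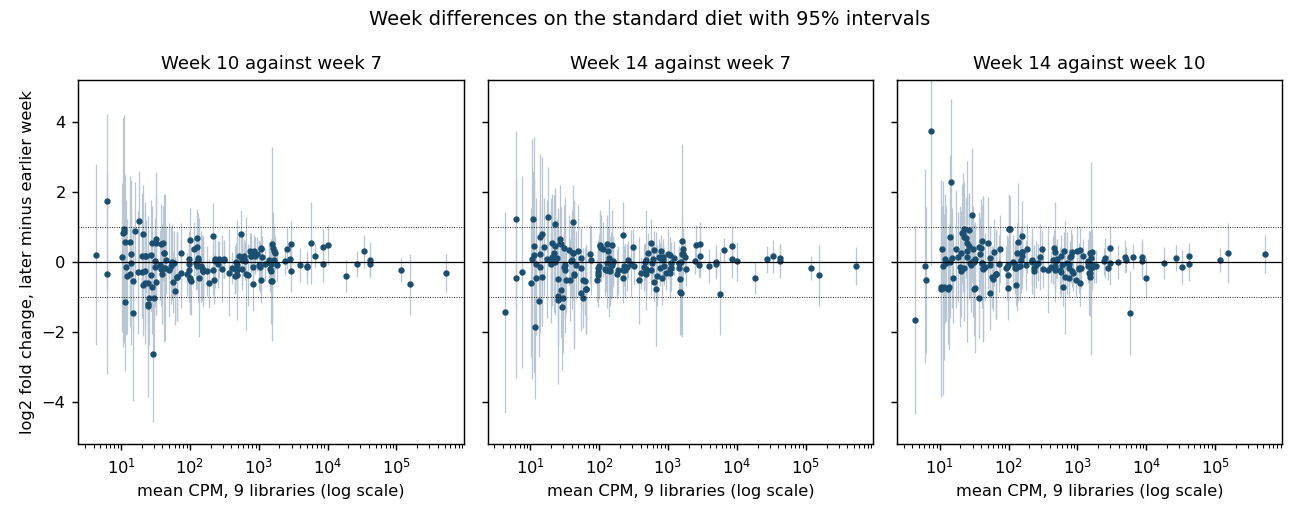
Fitted log2 difference, later minus earlier week (y axis), with its 95% interval (vertical lines) against mean CPM over 9 libraries (x axis, log scale) for the 3 week comparisons; miRNAs at 0 in all libraries of a week compared are left out and lines beyond 5.2 are clipped. Most points lie between the dotted lines at 1 and -1, and the intervals widen below 100 CPM.

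Between weeks 7 and 10 the smallest unadjusted p belonged to miR-133, a muscle miRNA that governs myoblast growth. It stood at 127, 19.2 and 23.2 CPM at week 7 and at 2.38, 10.6 and 11.9 at week 10. A count of 3 equals 7.149 CPM in week 10 replicate 1, so the 2.38 CPM there rests on fewer counts. All 3 week 10 libraries of miR-133 were below all 3 of week 7, and 1 week 7 library stood far above the rest. The log2 difference was -2.63 (SE 0.92, edgeR adjusted p = 0.947), and -1.18 without week 7 replicate 1. At week 14 it was back among the earlier values, at 43.1, 20.6 and 4.27 CPM. Of the abundant miRNAs, miR-30d stood at 6888, 7863 and 11660 CPM at week 7 and at 10040, 8837 and 18070 at week 10. The weeks overlapped, and the log2 difference of 0.48 (SE 0.27, edgeR adjusted p = 0.947) was 0.12 without week 10 replicate 3. miR-106b, from a paralog of the growth-promoting miR-17/92 cluster, had a log2 difference of -0.61 (SE 0.33). miR-199a-3p, found in platelets and fibroblasts, was at 583.8, 455.1 and 456.7 CPM at week 7 and at 383.8, 360.4 and 397.8 at week 10. These groups did not overlap, and the log2 difference was -0.39 (SE 0.25, edgeR adjusted p = 0.947). Unnamed miRNA 3 was likewise lower in each week 10 library, at 15060 to 17730 CPM against 18350 to 25120 at week 7 (log2 difference -0.41, SE 0.22). Unnamed miRNA 34 had a log2 difference of 0.79.

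Over the whole span from week 7 to week 14, miR-485-5p of the imprinted DLK1-DIO3 region had one of the smallest unadjusted p-values. It was at 81.1, 101 and 55.6 CPM at week 7, 78.7, 25.6 and 56.2 at week 10, and 38.3, 49.2 and 29.9 at week 14. The first and last weeks did not overlap, and week 10 ranged across both. The log2 difference of week 14 against week 7 was -1.02 (SE 0.42, edgeR adjusted p = 0.963). miR-30b, a family member of miR-30d, was at 27.8, 15.7 and 37.1 CPM at week 7, 33.4, 27.1 and 53.8 at week 10, and 83.8, 25.2 and 67.0 at week 14. Its week means ascended, but 1 week 14 library lay among those of week 7 (log2 difference 1.13, SE 0.51, edgeR adjusted p = 0.963). let-7f stood at 5901, 5814 and 5485 CPM at week 7 and at 7158, 7750 and 6652 at week 14. Every week 14 library was above every week 7 library, by a log2 difference of only 0.33 (SE 0.16, edgeR adjusted p = 0.963). miR-3957-5p had 0 counts in all week 7 libraries and 0 in 2 of the 3 week 14 libraries, the other being at 62.3 CPM. Set against a floor of 3 counts per library, its week 14 mean was at least 3.25-fold that of week 7, and this rests on that 1 library. Unnamed miRNA 81, which also did not overlap between these weeks, had a log2 difference of 1.09 (SE 0.49).

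Between weeks 10 and 14 the smallest unadjusted p belonged to unnamed miRNA 30, which stood at 611.6, 634.8 and 753.4 CPM at week 7, 584, 754 and 862 at week 10, and 458.6, 434.7 and 440.2 at week 14. All week 14 libraries were below all 6 earlier ones and lay close together. The log2 difference was -0.72 (SE 0.25, edgeR adjusted p = 0.848) against week 10 and -0.58 (SE 0.25, adjusted p = 0.963) against week 7. Week took 79.5% of its sum of squares, the highest value among the 168. miR-150, a lymphocyte miRNA that represses the transcription factor MYB, was at 2676, 2363 and 12150 CPM at week 7, 3657, 12940 and 8507 at week 10, and 2529, 4026 and 2603 at week 14. The 3 highest levels fell at weeks 7 and 10 and none at week 14, and the other 6 libraries overlapped. The log2 difference of week 14 against week 10 was -1.46 (SE 0.57, edgeR adjusted p = 0.848), and -0.94 without week 10 replicate 2. Its rank ran from 9 to 23 among the 364 features, the widest of any miRNA that entered the top 10.

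Other miRNAs with small unadjusted p-values between weeks 10 and 14 did not pass the adjusted test either. miR-30c was at 11.9, 18.1 and 26.9 CPM at week 10 and at 37.1, 40.04 and 32.8 at week 14 (log2 difference 0.90, SE 0.46, edgeR adjusted p = 0.848). miR-23a, a vessel wall miRNA, was at 758, 980.2 and 948.9 CPM at week 10 and at 753.2, 620.1 and 584.1 at week 14 (log2 difference -0.46, SE 0.25, adjusted p = 0.922). For these 2 the groups did not overlap, for miR-23a by a margin of under 5 CPM. Unnamed miRNA 245 was at 0 in all week 10 libraries and at 8.38, 17.2 and 4.27 CPM at week 14, the last of which is itself 3 counts. Its week 14 mean was at least 2.12-fold higher than week 10 with week 10 set at the floor of 3 counts per library. Unnamed miRNAs 38 and 41, which are near-identical copies in these counts and stand for 1 signal, overlapped between these weeks, with log2 differences of 0.94 (SE 0.45) and 0.93 (SE 0.47, edgeR adjusted p = 0.848 for each).

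**Figure D5:**
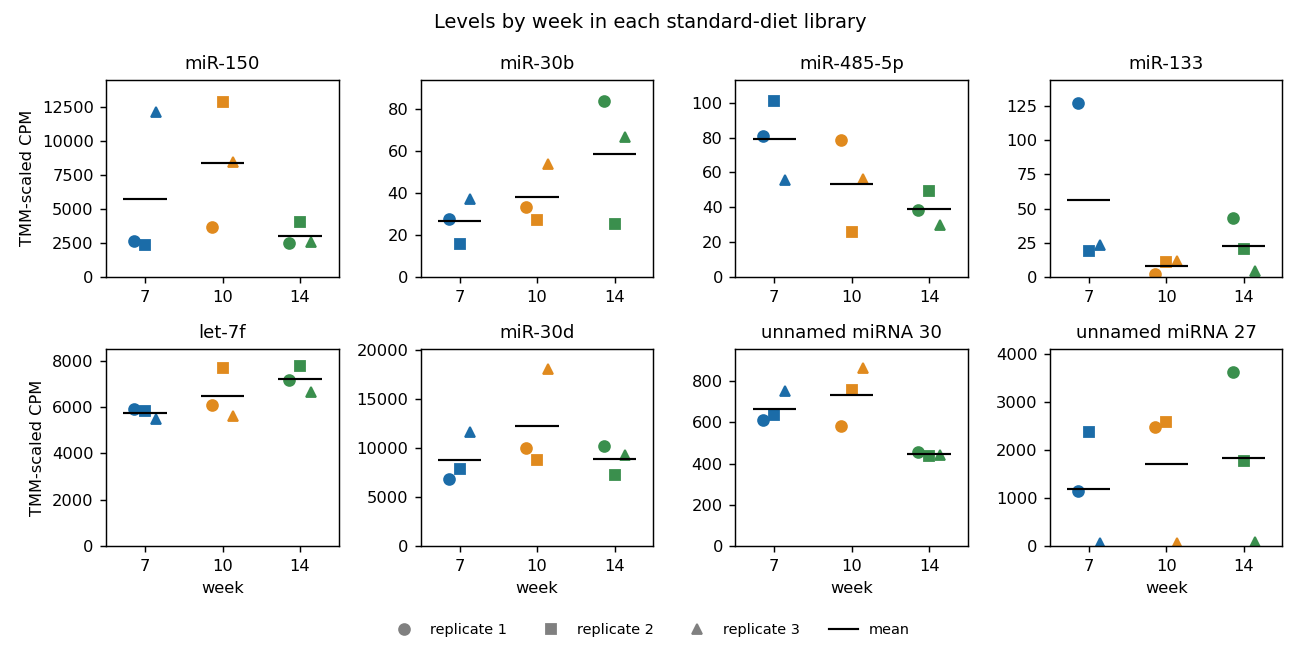
TMM-scaled CPM (y axis, from 0) at weeks 7, 10 and 14 (x axis) for 8 miRNAs in the 9 standard-diet libraries; points are libraries, shapes the replicate, bars the mean of 3. Unnamed miRNA 30 is low in all 3 week 14 libraries, miR-133 is led by 1 week 7 library, miR-150 is high in 1 library of week 7 and 2 of week 10, and unnamed miRNA 27 divides by library within every week.

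Among the remaining unnamed miRNAs with the smallest p-values, unnamed miRNA 52 was at 121.6, 152.3 and 214.3 CPM at week 10 and at 135.3, 98.4 and 76.9 at week 14 (log2 difference -0.66, SE 0.29, edgeR adjusted p = 0.848). Unnamed miRNA 12 was at 784.2, 1300 and 1232 CPM and then at 689.7, 862.6 and 765.1 (log2 difference -0.52, SE 0.23, edgeR adjusted p = 0.848). In both the weeks overlapped. For week 10 against week 7, unnamed miRNAs 56 and 6 overlapped too, with log2 differences of -0.83 (SE 0.46) and 0.52 (SE 0.30). Unnamed miRNA 47 was at 55.6, 120.3 and 106.6 CPM at week 7 and at 162.1, 129.7 and 167.6 at week 10, without overlap (log2 difference 0.70, SE 0.39, edgeR adjusted p = 0.947). Unnamed miRNA 68 was at 27.8, 41.9 and 48.7 CPM at week 7 and between 17.2 and 20.4 at week 14, also without overlap, while its week 10 values of 4.77, 30.2 and 15.0 spread across both. Unnamed miRNA 249 was at or under 6.975 CPM in each week 7 library and at 7.91 to 19.45 in the other 6. These are levels near the floor of 3 counts, which came to between 2.37 and 7.15 CPM in the CTRL libraries. Unnamed miRNA 139 was at 2.38, 13.6 and 0 CPM at week 10 and at 25.15, 34.3 and 14.25 at week 14, and its week 7 values of 9.27 to 20.9 overlapped both. Among more abundant ones, unnamed miRNA 17 was at 1538 to 1955 CPM in the 6 libraries of weeks 7 and 10 and at 862.2, 1321 and 1450 at week 14, below all of them (log2 difference against week 7 of -0.47, SE 0.22).

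The let-7 family, whose 7 tested members are let-7a, b, c, d, f, g and i, held 112300 to 142300 CPM in sum at week 7, 117500 to 141500 at week 10 and 121700 to 144300 at week 14. None of its members passed a week comparison. Median log2 differences were -0.05 for week 10 against 7, 0.03 for week 14 against 7 and 0.12 for week 14 against 10, beside -0.07, -0.04 and -0.02 over all 168. Without the TMM factor, which shifts the median of all miRNAs to 0.14, 0.09 and -0.09, the first of these was 0.17, with 7 of 7 members positive in place of 3. The within-week SD of its members ran from 0.10 to 0.26, all below the median of the 168.

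In the miR-30 family, 5 features were tested, and all 5 were positive for week 14 against week 7 under each scaling, with a median log2 difference of 0.43. With TMM, 78 of all 168 were positive there, and miR-30d itself had only 0.02 (SE 0.27). Against week 10 the week 14 median was 0.37, with 4 of 5 positive, beside 80 of all 168. None of the 5 passed the test, and 1, miR-30b, had an unadjusted p under 0.05 for week 14 against week 7. miR-30a-5p stood at 1142, 1613 and 1695 CPM at week 7 and at 1321, 2192 and 2191 at week 14, which overlap (log2 difference 0.36, SE 0.30). miR-30a-3p, the other arm of that hairpin, had 0.43 (SE 0.24). In sum the family held 8361 to 13750 CPM at week 7, 10440 to 20310 at week 10 and 9879 to 12110 at week 14, and most of this was miR-30d.

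Metabolic and growth-linked families showed no passing member either. miR-103 and miR-107, a near-identical pair that lowers insulin sensitivity through caveolin-1, had log2 differences of -0.53 (SE 0.31) and -0.63 (SE 0.37) for week 10 against week 7. These were -0.20 and -0.21 without week 7 replicate 1, and -0.24 and -0.32 without the TMM factor. Their sums were 1472 to 3234 CPM at week 7, 1420 to 1726 at week 10 and 1250 to 2419 at week 14. The 2 highest levels of miR-107, 1506 and 1051 CPM, were in the libraries with low TMM factors, where the scaling itself raises each level. Since their sequences nearly match, reads may have been split between them. miR-29a, a repressor of collagens and of insulin signalling genes, varied from 3221 to 4773 CPM, with log2 differences between -0.11 and -0.01. Without the TMM factor that of week 10 against week 7 was 0.07, and with RLE that of week 14 against week 10 was 0.01. miR-26b stood at 1738, 1669 and 2819 CPM at week 7 and at 3937, 2377 and 2398 at week 14 (log2 difference 0.49, SE 0.28). miR-17-5p, miR-25 and miR-106b, which were the 3 tested from the miR-17/92 clusters and paralogs, had median log2 differences of -0.21, -0.18 and 0.32 in the 3 comparisons, the first of which was 0.11 without the TMM factor. In the miR-10, miR-99 and miR-125 family, from the HOX and related clusters, 4 of 4 tested members were lower at week 14 than at week 7 under each scaling. The median log2 difference was -0.23 with TMM, -0.15 with RLE, the scaling of DESeq2, and -0.06 without a factor. With TMM, 90 of all 168 were lower in that comparison. In the miR-23 and miR-27 clusters the medians of 3 members were 0.16, -0.16 and -0.36.

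No member of the lists of cell and organ markers passed a week comparison. The red blood cell list was represented by miR-16b, miR-25 and miR-106b, and its defining miR-451, miR-486 and miR-144 were not analysed here. Their sum was 432200, 493500 and 829000 CPM at week 7, 420400 to 517100 at week 10 and 397300 to 769400 at week 14, with the highest values in the 2 libraries of low TMM factor. miR-25 followed in scaled levels, at 2516 and 1899 CPM in those 2 against 992.1 to 1588 in the other 7. Division by the low factors widens that gap, and shares of counts for miR-25 are not given here. The part of red cell RNA in the separation of these libraries was not tested. Platelet miRNAs (miR-191, miR-21 and miR-199a-3p) summed to 28840 to 32990 CPM at week 7, 29920 to 44470 at week 10 and 31460 to 39730 at week 14, most of it miR-191. For week 10 against week 7, miR-191 and miR-21 had log2 differences of 0.30 (SE 0.22) and 0.38 (SE 0.26), and miR-199a-3p, whose groups did not overlap, had -0.39 (SE 0.25). miR-223, the best known platelet and myeloid miRNA, was not analysed here. miR-150 alone stood for lymphocytes.

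Vascular miR-143, of smooth muscle, stood between 1804 and 3767 CPM and miR-221, of endothelium, between 262.4 and 386.2, with log2 differences from -0.25 to 0.41. Epithelial miR-200a and miR-200c were at 139.2 to 338.2 and 83.8 to 185.4 CPM. miR-200a was lower at weeks 10 and 14 than at week 7 by log2 differences of -0.51 (SE 0.33) and -0.46 (SE 0.33). Liver and gut miR-194 was at 29.7 to 108.9 CPM, with both ends of its range at week 7, and liver miR-122 was not analysed here. Muscle was represented by miR-133 alone.

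miRNAs of the DLK1-DIO3 imprinted region, a cluster transcribed from the maternal chromosome and active in brain, muscle and the fetus, were many but scarce. Of 58 features, 14 passed the filter on low counts, all of them neighbours on one chromosome in the RefSeq table. Their sum over the 58 was 1157, 1474 and 2940 CPM at week 7, 1124 to 1783 at week 10 and 1071 to 1798 at week 14. In scaled levels week 7 replicate 1 was the highest, led by miR-382-5p at 1195 CPM against 476.8 to 860.5 in the other 8. The low TMM factor of that library raises each of its levels, and shares of counts for miR-382-5p are not given here. miR-432 was at 910.5, 299.9 and 139.1 CPM within week 7 alone, against 279.9 to 414.8 at week 10 and 200.9 to 446.2 at week 14. Of the 14, 11 had a negative log2 difference for week 10 and 11 for week 14, each against week 7, with medians of -0.34 and -0.46. Over all 168 miRNAs, 94 and 90 were negative. miR-3957-5p, with 0 counts at week 7, was positive in both, and its week 10 mean of 1.8 CPM was under the floor of 3 counts. Without the TMM factor the first split was 7 and 7, and the second median was -0.18. The median within-week SD of the 14 was 0.85, beside 0.51 over all 168.

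Whether a week difference was particular to the standard diet was tested as the interaction of diet and week, and 0 of 168 (0%) passed for each of the 3 week pairs, with smallest edgeR adjusted p-values of 0.669, 0.286 and 0.992. At an unadjusted p under 0.05 there were 10, 10 and 3. DESeq2, again on all features with a count, called 0, 0 and 0 (13, 12 and 4 unadjusted). On the 168, limma-voom called 0, 0 and 0 (10, 9 and 2). miR-485-5p and miR-30b had the smallest adjusted p, both for week 14 against week 7. They were described above for their CTRL values, which enter this difference too. miR-485-5p averaged 79.3 CPM at week 7 and 39.1 at week 14 in CTRL libraries, and 41.7 and 73.6 in OBESE libraries (log2 difference of the changes, OBESE minus CTRL, 1.83, SE 0.59, edgeR adjusted p = 0.286). miR-30b averaged 26.9 and 58.6 CPM in CTRL libraries and 43.4 and 19.99 in OBESE libraries (-2.21, SE 0.71, adjusted p = 0.286). The 2 miRNAs described first for weeks 10 and 14 had their lowest mean at week 14 in both diets. Unnamed miRNA 30 averaged 666.6, 733.3 and 444.5 CPM over the 3 weeks in CTRL libraries and 640, 698.6 and 403 in OBESE libraries, a difference of the week 14 against week 10 changes of -0.07 (95% interval -0.80 to 0.66). miR-150 averaged 5730, 8369 and 3053 CPM in CTRL libraries and 6858, 14930 and 3146 in OBESE libraries (-0.79, 95% interval -2.45 to 0.87).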

How the data were processed

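Plasma small RNA was sequenced from 9 CTRL and 9 OBESE samples, 3 for each diet and week by their titles. Per the labels' protocols, the QIAseq miRNA kit with molecular identifiers was used, and single reads of 76 nucleotides were taken on the AVITI platform of Element Biosciences. The tools named in the submitters' processing notes are cutadapt 4.9, Bowtie 1.3.1 and DESeq2 1.42, with no steps attached. Not given in the sources used here are the build, the miRNA annotation and the treatment of multiply matching reads. Raw counts for each miRNA were deposited, either of molecules or of reads. The series table and the single files differed in 0 values. All 107 named features matched a miRNA gene in the RefSeq table of assembly ARS-UI_Ramb_v3.0, used for names and neighbours only. No sequences are shown.

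edgeR 4.0.16 under R 4.3.3 was used for the counts (glmQLFit, glmQLFTest), after filterByExpr by group (minimum count 10, minimum total 15) and TMM. A single model held all 18 libraries in 6 groups, so OBESE libraries enter the estimate of the spread (common dispersion 0.153, with 12 residual degrees of freedom). p-values are two-sided and adjusted by Benjamini-Hochberg over the 168 features, with a threshold of 0.05. SEs are the log2 difference divided by the square root of the F statistic and are approximate. The 3 week pairs of CTRL share libraries and are not independent. Spread and ranks use log2 CPM (prior count 2). Library measures were compared over all 1680 assignments of week labels. Between replicates of 1 CTRL week the counts differed far beyond sampling noise (chi-square per degree of freedom of at least 69.9), so no library was counted as a copy of another. Alternatives were DESeq2 1.42.0 without the filter on low counts, limma-voom 3.58.1, other scaling, filters, CTRL libraries alone, a replicate block, and leaving out libraries. The script was checked on simulated data.

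miRNAs named are the 10 most abundant, the 10 with the smallest p and the 5 named with the smallest p in each comparison, the 5 named with the smallest and the largest SD, and examples from 17 lists. The members and lists were chosen with earlier results of these data known.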

Additional observations from a re-analysis of the deposited data

How the results depend on the processing

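The 4 tests among CTRL weeks and the 3 interaction tests kept 0 calls under every alternative that was run (18 alternatives for each CTRL test and 17 for each interaction, with smallest adjusted p-values of 0.427, 0.451, 0.494 and 0.329, and of 0.441, 0.185 and 0.27). The miRNAs picked by smallest p in the 3 CTRL week pairs, with and without a miRNA name, had 611 values under the alternatives. Of these, 0 passed the threshold and 3 reversed. Without CTRL week 14 replicate 1, miR-3957-5p had fitted log2 differences of 0 for week 14 against week 7 and -3.27 against week 10, its other week 14 libraries being at 0. Over all the alternatives these ran from 0 to 7.67 and from -3.27 to 4.62. Without CTRL week 7 replicate 1, miR-323a-3p had 0.0015 for week 14 against week 7, its other 2 week 7 libraries being at 10.5 and 0 CPM. Over all the alternatives it ran from -2.44 to 0.0015. Of 51 list medians, 6 changed sign between scalings. The median rho between weeks was 0.981 over named miRNAs only. The smallest adjusted exact p of the library measures ran from 0.0429 to 0.75 when each replicate was left out. Replicate numbers did not pass the check for pairing: deviations from the week means correlated above 0.1 in 8 of 9 same-numbered pairs of CTRL libraries (lowest 0.0138), although each library correlated best with its own number in 18 of 18 comparisons, a hint from the data and not from the design. The median rho of ranks between weeks was 0.969 over the 9 same-numbered pairs and 0.950 over the other 18. With a replicate block the week comparisons called 0, 0 and 0 (9, 8 and 5 at an unadjusted p under 0.05). A test among replicate numbers called 5 of 168 (2.98%), which were unnamed miRNAs 71, 27, 222 and the near-identical 54 and 80. It called 12 with DESeq2 on all features with a count, 2 with limma-voom, 2 without the TMM factor and 18 with edgeR without the filter. It called 1 with at least 10 counts in every CTRL library, 3 with CTRL libraries alone and 2 without both libraries of low TMM factor. When each replicate was left out, it called 1 to 8. The cause was not tested. Depth and 3 libraries a week limit what can be seen below 100 CPM, where few intervals exclude a 2-fold change.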
